A study of Mus musculus with 12 samples.

Results

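RNA-Seq counts were examined for 10 imprinted genes that govern growth before and after birth: *H19*, *Igf2*, *Igf2r*, *Meg3*, *Dlk1*, *Mest*, *Peg3*, *Cdkn1c*, *Grb10* and *Plagl1*. They were chosen by gene symbol, without regard to their level, from the 55487 genes of the count table, and all 10 were present. The libraries came from 12 whole lungs of C57BL/6J mice on postnatal day (PND) 21, with 3 lungs in each of 4 groups: room air females, hyperoxia females, room air males and hyperoxia males. Hyperoxia was 95% FiO2, the inspired oxygen fraction, from PND 1 to PND 5, with room air controls of the same age. All 12 mice, controls included, were *miR-30a*-/-, so that hyperoxia was compared within mice lacking *miR-30a* in every cell, a deletion made by CRISPR. Wild-type lungs were not analysed here. Pups of several litters had been mixed before the exposure, and the numbers in the labels name single mice. The lungs are separate samples, and the p-values below measure the spread between these lungs.

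Imprinted genes are transcribed mainly from one parental copy, and many of them set the growth rate of the fetus and the newborn. Genes active from the paternal copy, such as *Igf2*, *Dlk1*, *Mest*, *Peg3* and *Plagl1*, mostly promote growth or hold back differentiation, whereas genes active from the maternal copy, such as *H19*, *Igf2r*, *Cdkn1c* and *Grb10*, mostly restrain growth. In the lung and in other organs many of these genes are expressed strongly in the fetus and are shut down together during the first weeks of life. The counts do not separate the parental copies, so that imprinting itself was not measured.

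Several of the genes are hosts of microRNAs, and the deleted gene is a microRNA. The mature sequences are given first because they show what was deleted and what the host genes carry. They were taken from RefSeq (GRCm38.p6) and are written 5′ to 3′, with the seed, bases 2 to 8, in capitals.
miR-30a-5p, deleted: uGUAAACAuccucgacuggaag
miR-30a-3p, deleted: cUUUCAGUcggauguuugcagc
miR-675-5p, in *H19*: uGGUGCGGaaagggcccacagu
miR-483-5p, in *Igf2*: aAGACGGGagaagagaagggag
miR-335-5p, in *Mest*: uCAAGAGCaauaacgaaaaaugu
miR-770-5p, in *Meg3*: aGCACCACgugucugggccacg
None of the 10 mature arms of these 5 microRNA genes shared its seed with another. *Mir30a* had 0 counts in all 12 lungs. *Mir675* and *Mir770* also had 0 counts in all 12 lungs, *Mir483* had 3 to 14 and *Mir335* had 2 to 10, so that these total RNA libraries hold no measure of the microRNAs or of the deletion.

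*Dlk1* and *Meg3* lie next to each other on chromosome 12 in the same imprinted domain, *Dlk1* being active from the paternal and *Meg3* from the maternal copy. The 250 bases before their annotated starts are shown because CpG pairs, in capitals, are the letters that carry DNA methylation. Both stretches are on the plus strand of GRCm38.p6 and come from RefSeq.
*Dlk1*, chr12:109452573-109452822: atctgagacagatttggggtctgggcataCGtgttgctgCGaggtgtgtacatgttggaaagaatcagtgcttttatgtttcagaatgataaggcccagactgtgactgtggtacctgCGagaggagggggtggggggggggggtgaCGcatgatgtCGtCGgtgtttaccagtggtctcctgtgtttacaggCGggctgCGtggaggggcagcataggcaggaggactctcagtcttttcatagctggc
*Meg3*, chr12:109540746-109540995: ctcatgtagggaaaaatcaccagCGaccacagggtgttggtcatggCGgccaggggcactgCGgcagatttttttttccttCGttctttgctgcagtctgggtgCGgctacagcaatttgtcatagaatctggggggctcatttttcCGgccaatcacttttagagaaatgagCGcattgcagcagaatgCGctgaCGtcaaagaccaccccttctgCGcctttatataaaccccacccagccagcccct
The *Dlk1* stretch held 8 CpG pairs and the *Meg3* stretch 10. RefSeq windows were at hand for 8 of the 10 genes, with 15 start sites, and 12 of these 15 windows held more CpG pairs than 6, the median of 32817 windows of the same length. The most CpG pairs, 40, stood before 1 start of *Grb10*, a number that 1.31% of all windows reached, and the fewest, 0, before a second start of *Meg3*. Methylation was not measured, and the pairs are a description of sequence alone.

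The gene counts of a lung summed to between 8763033 and 16741694, with a median of 11942546. Levels are given as CPM, the counts of a gene scaled to the normalized library size of the lung. Against the unscaled totals, 3 counts, taken as the smallest detectable level, stood at 0.179 to 0.342 CPM, a floor that covers counting error only. All 9 lung markers (*Sftpc*, *Sftpb*, *Ager*, *Scgb1a1*, *Pecam1*, *Cdh5*, *Col1a1*, *Col1a2* and *Pdgfra*) were found in every lung. A single library, room air male 1, stood apart. In it the 8 skeletal muscle markers summed to 2303 CPM, against 126 to 212 CPM in the other 11 lungs. Results of the 10 genes that rest on this lung are given with and without it. The 4 red cell markers summed to 4908 to 7666 CPM in the room air lungs and 1210 to 4470 CPM in the hyperoxia lungs. In whole lungs, fewer cells of a type and less RNA per cell cannot be told apart.

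All 10 genes had counts in all 12 lungs, from 95 to 3111. Compared per kilobase of exon, *Igf2r* had the highest median at 15.2 CPM per kilobase. *Cdkn1c* followed at 12.01, *Plagl1* at 10.7, *Grb10* at 8.83, *Mest* at 8.53 and *Peg3* at 8.18 CPM per kilobase. The lower levels were those of *Meg3* at 4.48, *H19* at 4.37, *Dlk1* at 3.70 and *Igf2* at 1.88 CPM per kilobase. Of the 9 neighbouring pairs in this order, 2 had ranges over the 12 lungs that did not overlap, *Peg3* above *Meg3* and *Dlk1* above *Igf2*. *Igf2r* was nevertheless above *Cdkn1c* in 12 of 12 lungs, whereas *Mest* was above *Peg3* in 6 of 12 and *Meg3* above *H19* in 6 of 12. The place of *Igf2* at the bottom depends on how shared bases were counted: 62.8% of its exon bases are also exon bases of *Gm49394* on the same strand, a gene with 0 counts, and the sources used here do not say whether reads on such bases were assigned. Reads were not recounted. With all its counts set over the 2127 bases not shared on that strand, *Igf2* stood at 5.06 CPM per kilobase, place 7 of 10. With all counts set likewise over bases shared on neither strand, *Cdkn1c*, at 17.3 CPM per kilobase, stood above *Igf2r*, and *Mest* was at 11.1. These values hold only if no counted read fell on a shared base.

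Part of each level was background. The median density of reads per kilobase over 1490 receptor genes of smell and pheromone sensing (olfactory and vomeronasal), a family used mainly in sensory neurons, was taken as an estimate of the density without expression, and this density times the exon length of a gene was set against its counts. Single receptors can be expressed in the lung: *Olfr78*, known from neuroendocrine cells, had 51 to 104 counts, and leaving it out moved the density of a lung by at most 0.057%. For *Igf2* the expected background was 60.8% of the counts over all lungs, from 39.8% in hyperoxia male 1 to 104% in hyperoxia female 5, so that in the latter lung *Igf2* was not detectable above background. With all its counts kept and the length cut to its 2127 unshared bases, the share was 22.6%, from 14.8% to 38.8%. Its nearness to background thus also rests on the counting of shared bases. The share was 31.1% for *Dlk1* and 25.7% for *Meg3*. It was 13.5% for *H19* over all lungs, but 25.9% in the median lung and 2.72% in room air male 1. For *Mest*, *Peg3*, *Grb10*, *Plagl1*, *Cdkn1c* and *Igf2r* the share lay between 7.16% and 13.9%.

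**Figure D1:**
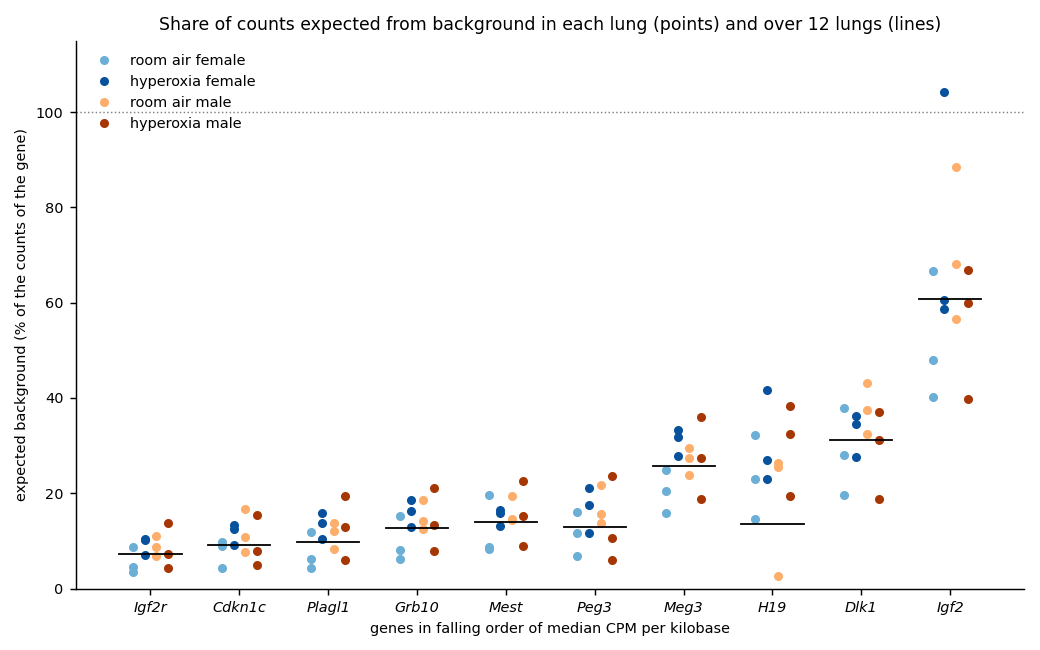
Expected background as a percentage of the counts of each gene, in each of 12 lungs (points, coloured by group) and over all lungs (lines), with genes in falling order of median CPM per kilobase. *Igf2* has the largest share, 60.8% over all lungs by all its exon bases, and 1 lung above 100%. With all its counts set over its unshared bases this share is 22.6% (not drawn). *Igf2r* has the smallest share, 7.16%.

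Hyperoxia was compared with room air by edgeR's quasi-likelihood test on 45828 genes, and genes past a 1.5-fold change with a p under 0.05 after Benjamini-Hochberg adjustment were called. All 10 genes passed the expression filter. Over both sexes 0 of the 10 were called, where 0.0415% of all genes tested were (19 genes), and the smallest adjusted p among the 10 was 0.927. Without adjustment, 2 of the 10 (*Dlk1* and *Plagl1*) had a p under 0.05, against 5.2% of all genes. In females 0 of 10 were called, where 0.00218% of all genes were, and 1 (*Plagl1*) had an unadjusted p under 0.05, against 12.6%. In males 0 of 10 were called, where 0.0% of all genes were, and 1 (*H19*) had an unadjusted p under 0.05, against 2.7%, but 0 of 10 without room air male 1. DESeq2 gave no p for *H19* and called 0 of the other 9 in each of these comparisons, with 1, 1 and 0 of them at an unadjusted p under 0.05, where it called 0.17%, 0.512% and 0.0% of the genes it gave an adjusted p.

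Over both sexes 5 of the 10 genes had higher and 5 had lower values after hyperoxia, with a median log2 fold change of -0.06, where the median over all genes was 0.03. In females 3 were higher and 7 lower (median -0.11, all genes 0.11), and in males 6 were higher and 4 lower (median 0.06, all genes -0.01). Setting *H19* aside, the pooled differences lay between the -0.33 of *Plagl1* and the 0.26 of *Dlk1* on the log2 scale. The 95% confidence intervals of these 9 genes ran from -0.65 to 0.54, so that a 1.5-fold lower level lay inside the interval of *Plagl1* and a 1.5-fold higher level inside none of the 9.

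**Figure D2:**
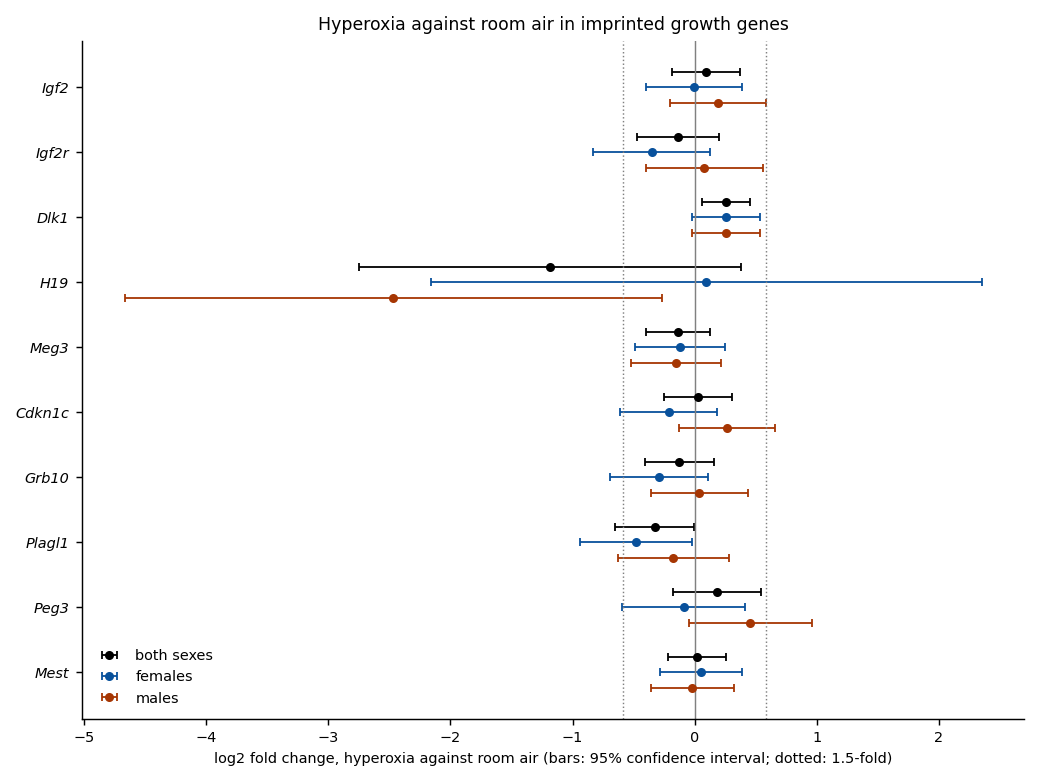
Log2 fold change of each gene, hyperoxia against room air, over both sexes (black), in females (blue) and in males (brown), with 95% confidence intervals from the edgeR fit of 12 lungs and dotted lines at a 1.5-fold change. The pooled interval of *Dlk1* runs from 0.06 to 0.46, and the intervals of *H19* are the widest.

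*Dlk1* (ENSMUSG00000040856, chr12:109452823-109463336, plus strand) encodes a transmembrane protein related to the Notch ligands that keeps precursor cells, such as preadipocytes, undifferentiated. Positions here and below are those of the whole gene on mm10 (GRCm38). *Dlk1* was higher in every hyperoxia lung than in any room air lung. The room air females had 18.01, 20.8 and 18.7 CPM (numbers 2, 5 and 6) and the hyperoxia females 23.4, 21.0 and 24.4 CPM (numbers 2, 4 and 5). The room air males had 20.7, 19.9 and 18.9 CPM (numbers 1, 4 and 5) and the hyperoxia males 25.3, 23.5 and 22.4 CPM (numbers 1, 2 and 3). The gap was narrow: the lowest hyperoxia lung stood at 21.0 CPM and the highest room air lung at 20.8 CPM. Room air lungs averaged 19.5 ± 1.14 CPM (SD, n = 6) and hyperoxia lungs 23.3 ± 1.497 CPM (SD, n = 6). The log2 fold change was 0.26 (SE 0.10), a 1.196-fold difference, with an adjusted p of 0.927 (edgeR). The difference was 0.26 on the log2 scale in females and 0.26 in males, and the interaction of sex and hyperoxia was -0.002 (SE 0.19, adjusted p = 0.999, edgeR).

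Groups that do not overlap between the 6 hyperoxia and the 6 room air lungs were found for 0.214% of all genes tested, 98 genes, and for 1 of the 10 genes, *Dlk1*. Within 1 sex they are common: 17.2% of all genes had groups of females that did not overlap, as did 1 of the 10 genes (*Dlk1*), and 6.62% had groups of males that did not overlap, as did 2 of the 10 (*Dlk1*, higher, and *Meg3*, lower after hyperoxia). With the expected background subtracted from the counts, the pooled log2 fold change of *Dlk1* was 0.40. It stayed above 0 when each lung was left out in turn, from 0.24 to 0.29. With 1 or 2 RUVr factors, which take up variation that the groups leave over, its adjusted p was 0.0256 and 0.0198, at the same size of 0.26 and so under the fold threshold (edgeR). In these 2 fits 4.31% and 4.97% of all genes had an adjusted p under 0.05.

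*Meg3* (ENSMUSG00000021268, chr12:109541001-109571726, plus strand), the maternal long non-coding RNA beside *Dlk1*, was lower on average after hyperoxia, but the ranges overlapped. The hyperoxia females had 73.9, 76.6 and 81.0 CPM and the room air females 78.6, 82.3 and 91.4 CPM. The hyperoxia males had 80.5, 77.2 and 81.2 CPM, and the room air males had 96.7, 86.6 and 82.6 CPM. All 3 hyperoxia males thus stood below all 3 room air males, with the highest level of the 12 in room air male 1. The pooled log2 fold change was -0.14 (SE 0.13, adjusted p = 0.927, edgeR). It was the steadiest of the 10 genes, with a coefficient of variation of 7.84% over the 12 lungs.

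*Igf2* (ENSMUSG00000048583, chr7:142650766-142666816, minus strand) encodes insulin-like growth factor II, the main fetal growth factor of the family. Its level was the lowest of the 10 per kilobase of all exon bases. The room air lungs had 8.65 to 12.7 CPM with a median of 10.5 CPM, and the hyperoxia lungs 8.16 to 14.7 CPM with a median of 11.4 CPM. The groups overlapped almost wholly. The log2 fold change was 0.09 (SE 0.14, adjusted p = 0.945, edgeR), with -0.004 in females and 0.19 in males. With each lung left out in turn, the pooled value ran from 0.0082 (without hyperoxia female 4) to 0.18 (without hyperoxia female 5). The male value ran from 0.071 to 0.32. With the expected background of all its exon bases subtracted, *Igf2* was at -0.48 in females (adjusted p = 0.874, edgeR), 0.71 in males and -1.20 in the interaction, and was not called.

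*Igf2r* (ENSMUSG00000023830, chr17:12682406-12769664, minus strand) encodes the mannose 6-phosphate receptor that carries IGF2 to the lysosome and so lowers its amount. The room air females had 183, 198 and 134 CPM, and the hyperoxia females 149, 122 and 133 CPM. The room air males had 134, 156 and 134 CPM, and the hyperoxia males 184, 104 and 158 CPM. The spread within the groups was as wide as the differences between them: the hyperoxia males alone covered 104 to 184 CPM. The log2 fold change was -0.14 (SE 0.17, adjusted p = 0.937, edgeR) over both sexes, -0.35 in females and 0.08 in males. With each lung left out in turn, the pooled value ran from -0.23 (without hyperoxia male 1) to -0.033 (without hyperoxia male 2). With 2 RUVr factors the female difference was -0.33 with an adjusted p of 0.0007 (edgeR), under the fold threshold, in a fit where 17.5% of all genes had an adjusted p under 0.05 in females, whereas it was 0.033 once the receptor share, the percentage of the counts of a lung on those olfactory and vomeronasal receptor genes, entered the fit.

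*Cdkn1c* (ENSMUSG00000037664, chr7:143458339-143461050, minus strand) encodes p57, an inhibitor of cyclin-dependent kinases that stops the cell cycle. It ranged from 19.2 to 33.9 CPM in room air (median 25.1 CPM) and from 20.3 to 35.2 CPM after hyperoxia (median 23.98 CPM). Its log2 fold change was 0.03 (SE 0.14, adjusted p = 0.986, edgeR). *Grb10* (ENSMUSG00000020176, chr11:11930508-12038683, minus strand) encodes an adaptor that binds the insulin and IGF1 receptors and dampens their signal. It ranged from 75.3 to 106 CPM in room air (median 81.7 CPM) and from 66.4 to 97.2 CPM after hyperoxia (median 77.9 CPM). Its log2 fold change was -0.13 (SE 0.14, adjusted p = 0.932, edgeR). Neither of the growth inhibitors separated the exposures, although in females *Grb10* had an adjusted p of 0.0057 with 2 RUVr factors (edgeR), at a log2 fold change of -0.28, against -0.29 with an adjusted p of 0.480 without them (17.5% of all genes were under 0.05 in that RUVr fit). Once the receptor share entered the fit, this female difference of *Grb10* was -0.0079.

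*Plagl1* (ENSMUSG00000019817, chr10:13060504-13131694, plus strand) encodes a zinc finger transcription factor known as ZAC1, which has been described as a regulator of several other imprinted genes. It had the lowest p of the 10 genes in females. The room air females had 114, 131 and 82.6 CPM, and the hyperoxia females 85.0, 76.7 and 73.1 CPM. The room air males had 89.9, 108 and 81.7 CPM, and the hyperoxia males 111, 62.3 and 74.4 CPM. Room air females 2 and 5 were above every hyperoxia female, but room air female 6 lay within their range. The log2 fold change was -0.48 (SE 0.22, adjusted p = 0.386, edgeR) in females and -0.33 (SE 0.16, adjusted p = 0.927, edgeR) over both sexes. With the receptor share in the fit, these were -0.05 and -0.18. With 2 RUVr factors the adjusted p was 6.3e-06 in females and 1.1e-05 over both sexes (edgeR), at log2 fold changes of -0.45 and -0.33, under the fold threshold, where 17.5% and 4.97% of all genes were under 0.05. The cardiac muscle markers summed to 158 to 181 CPM in the room air females and 82.4 to 113 CPM in the hyperoxia females, and the 7 markers of lung mesenchyme to 1731 to 2928 CPM and 1593 to 1758 CPM. The 9 lung markers summed to 11880 to 22470 CPM and 10720 to 11630 CPM, with 9 of 9 lower in the hyperoxia females (median log2 fold change -0.54, 0 called). The lung and mesenchyme lists share *Col1a1*, *Col1a2* and *Pdgfra*. Higher in the hyperoxia females were 1 of 5 cardiac, 1 of 7 mesenchyme and 0 of 4 red cell markers. Also higher were 6 of 8 skeletal muscle, 5 of 5 thymus, 4 of 4 adipose and 3 of 3 liver markers, and 60.8% of all genes. The part of these lists in the female differences was not tested.

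*Peg3* (ENSMUSG00000002265, chr7:6703892-6730431, minus strand) encodes a zinc finger protein of the paternal copy that has been linked to p53 and TNF signalling and to maternal care. In room air it had 96.7 to 142 CPM with a median of 106 CPM, and after hyperoxia 84.8 to 189 CPM with a median of 121 CPM. Hyperoxia males 1 and 3 had the highest levels of the 12 lungs, 189 and 156 CPM, while hyperoxia male 2 had 86.6 CPM. The log2 fold change was 0.46 (SE 0.25, adjusted p = 0.9998, edgeR) in males and -0.09 in females, and the interaction was -0.55 (SE 0.35, adjusted p = 0.581, edgeR). Without hyperoxia male 1 these male and interaction values were 0.22 and -0.31, and without hyperoxia male 2 they were 0.72 and -0.82. The interaction was -0.011 once the receptor share entered the fit. *Mest* (ENSMUSG00000051855, chr6:30723547-30748465, plus strand) encodes a protein of the alpha/beta hydrolase fold that is high in growing mesoderm and in expanding fat. It had 25.2 to 39.95 CPM in room air (median 33.0 CPM) and 26.9 to 36.9 CPM after hyperoxia (median 33.8 CPM), with a log2 fold change of 0.02 (SE 0.12, adjusted p = 0.992, edgeR). Of the *Mest* exon bases, 23.1% are shared with *Copg2* on the opposite strand, so that reads of both could be mixed if strand was not used.

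**Figure D3:**
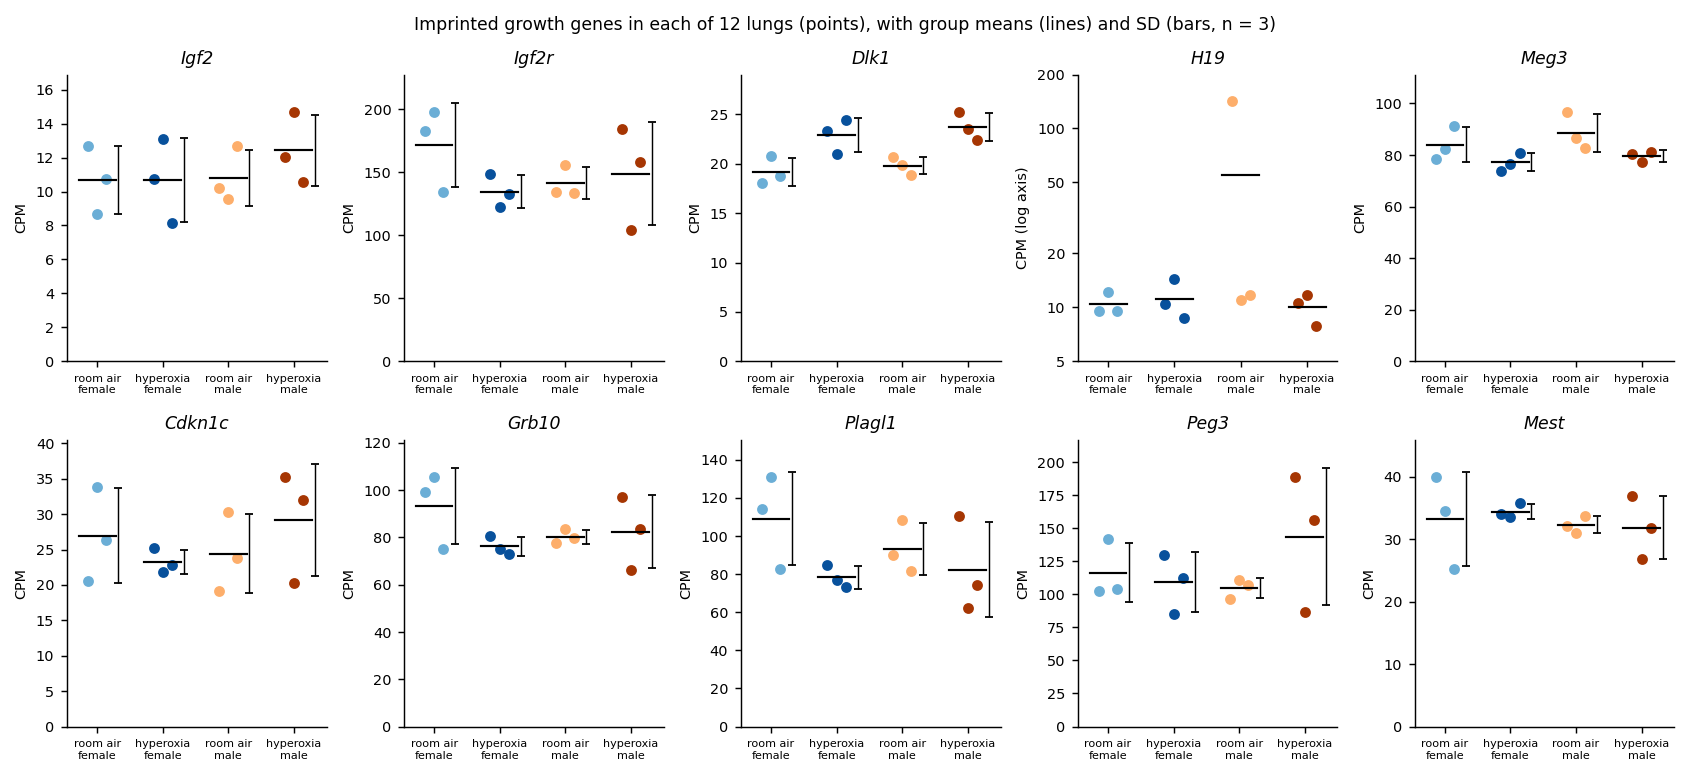
CPM of the 10 genes in each of 12 lungs (points), with the mean of each group (lines) and its SD (bars, n = 3; not drawn for *H19*, which has a log axis). The *Dlk1* lungs after hyperoxia, 21.0 to 25.3 CPM, all lie above those in room air, 18.01 to 20.8 CPM, and 1 room air male has 143 CPM of *H19*.

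*H19* (ENSMUSG00000000031, chr7:142575529-142578143, minus strand) is a long non-coding RNA of the maternal copy, a neighbour of *Igf2* that shares its enhancers, and in the adult it is kept mainly in skeletal muscle. It was near 10 CPM in all lungs but one. Room air male 1 had 143 CPM (1719 counts), and the other 11 lungs had 7.90 to 14.4 CPM (102 to 191 counts). The other room air males had 10.96 and 11.7 CPM, and the hyperoxia males had 10.6, 11.7 and 7.90 CPM. The room air females had 9.55, 12.2 and 9.56 CPM, and the hyperoxia females had 10.4, 14.4 and 8.77 CPM. The log2 fold change in males was -2.47 (SE 0.96, adjusted p = 0.9998, edgeR), and without room air male 1 it was -0.18. Over both sexes it was -1.19 (SE 0.68, adjusted p = 0.927, edgeR), and without that lung -0.045. With 2 RUVr factors *H19* was called in males, at -1.54 (adjusted p = 0.0458, edgeR), with room air male 1 in the fit, where 0.233% of all genes were called, and not without that lung, at -0.19 (adjusted p = 0.937, edgeR).

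In room air male 1, *H19* was 13.5 times the median of the other 11 lungs. Of 21214 genes with at least 5 CPM in that median, 8 genes (0.0377%) had a ratio at least as high, and the median ratio was 0.955. All 8 skeletal muscle markers were above the other 11 lungs: *Acta1*, skeletal actin, had 729 CPM against 4.77 to 7.48 CPM, and *Myh1*, a fast myosin heavy chain, had 553 CPM against 12.02 to 22.9 CPM. Above the other 11 lungs were also 2 of 5 thymus and 1 of 3 liver markers, but 0 of 5 cardiac muscle, 0 of 4 adipose tissue and 0 of 4 red cell markers. The same lung had 10.2 CPM of *Igf2*, within the 8.16 to 14.7 CPM of the others. Of the 10 genes, *Meg3* was the other one that exceeded all 11, at 96.7 CPM against at most 91.4 CPM. The part of skeletal muscle in the *H19* level was not tested.

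**Figure D4:**
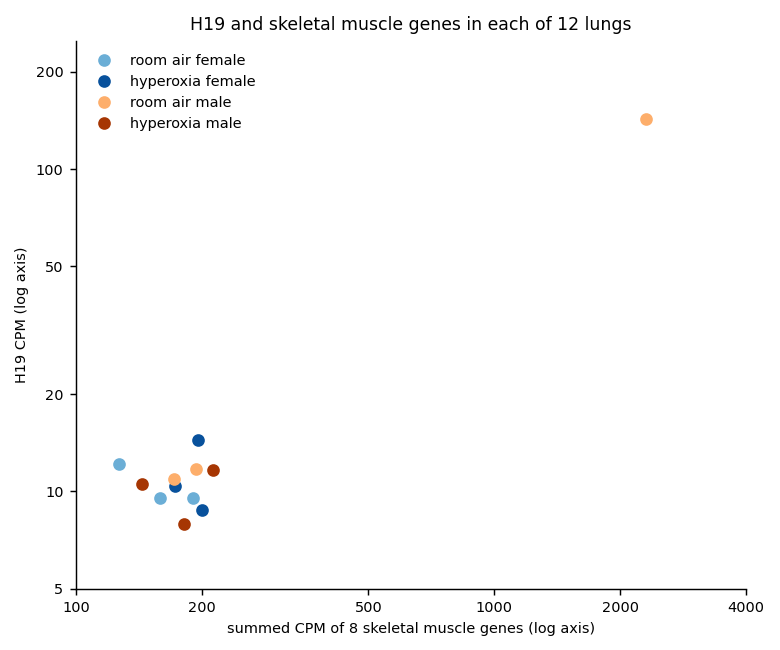
*H19* CPM against the summed CPM of 8 skeletal muscle markers in each of 12 lungs, both on log axes, coloured by group. Room air male 1 stands at 143 and 2303 CPM, and the other 11 lungs lie at 7.90 to 14.4 CPM of *H19* and 126 to 212 CPM of the markers.

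Among 21396 other genes with a mean of at least 5 CPM, those whose log2 CPM was most like *H19* over the 12 lungs were *Atp2a1*, the calcium pump of fast muscle fibres (r = 0.985), *Acta1* (r = 0.978) and *Krt4*, a keratin of stratified epithelia (r = 0.976). Without room air male 1 these were 0.531, 0.227 and 0.194, so that the likeness rests on that lung. For *Igf2* they were *Gm49736* (r = 0.908), *Slc5a10* (r = 0.871) and *Gm28496* (r = 0.867), each at 6.09 to 11.7 CPM on average. These correlations describe libraries that share depth and background, and they carry no test.

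For the pairs of genes at shared loci, no relation across lungs passed the test. Over the 12 lungs *H19* and *Igf2* had a Pearson's r of -0.05 (permutation p = 0.871, adjusted over the 2 pairs 0.871) and a Spearman's rho of 0.21 (permutation p = 0.512, adjusted 0.512). Without the 2 lungs farthest from the median of *H19*, r was 0.40. *Dlk1* and *Meg3* had an r of -0.39 (permutation p = 0.207, adjusted 0.413) and a rho of -0.50 (permutation p = 0.104, adjusted 0.207), and r was -0.43 without the 2 lungs farthest from the median of *Dlk1*. Within the groups, as residuals from the 4 group means, the *Dlk1* and *Meg3* pair had an r of 0.31 (permutation p = 0.326, adjusted 0.652) and the *H19* and *Igf2* pair of 0.008 (permutation p = 0.981, adjusted 0.981). Over all 45 pairs of the 10 genes, r ran from -0.44 to 0.97 with a median of -0.03.

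A block of 3 genes had high correlations across the lungs, which share depth and background and are given with no test. *Igf2r* and *Grb10* had an r of 0.97, *Grb10* and *Plagl1* of 0.91, and *Igf2r* and *Plagl1* of 0.88, and as residuals from the group means these were 0.96, 0.93 and 0.91. The other pair above 0.8 was *Peg3* with *Cdkn1c* at 0.85. The lungs high in the block, room air females 2 and 5 and hyperoxia male 1, were those with the smallest receptor share, the percentage of all counts on olfactory and vomeronasal receptor genes. That share was 0.410% to 0.517% in these 3 lungs and 0.642% to 0.945% in the other 9. This relation was examined after the values were seen.

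Against the receptor share, *Grb10* had an r of -0.95 and a rho of -0.92 (permutation p = 1e-05 and 9e-05, adjusted over 10 genes 5e-05 and 0.00090). *Igf2r* had an r of -0.93 and a rho of -0.90 (permutation p = 1e-05 and 0.00019, adjusted 5e-05 and 0.00095). *Plagl1* had an r of -0.89 and a rho of -0.80 (permutation p = 0.00010 and 0.00256, adjusted 0.00033 and 0.0085). A p of 1e-05 is the smallest that 100000 permutations give. The share was picked after the levels of these genes were seen, so that the p-values against it describe the relation and do not test it. Without the 2 lungs farthest from the median share r was -0.91, -0.88 and -0.80, within room air it was -0.95, -0.97 and -0.90, and within hyperoxia -0.98, -0.92 and -0.97. Such values were frequent: among 21397 genes with a mean of at least 5 CPM, 26.7% had an r under -0.8. *Cdkn1c* had an r of -0.65 (permutation p = 0.0230, adjusted 0.0574) and a rho of -0.75 (permutation p = 0.0069, adjusted 0.0172). *Peg3* had an r of -0.60 (permutation p = 0.0364, adjusted 0.0728) and a rho of -0.65 (permutation p = 0.0253, adjusted 0.0505). Without the 2 farthest lungs these r were -0.32 and -0.33, so that the relations over all lungs depend in part on those lungs. Within room air r was -0.58 for *Cdkn1c* and -0.80 for *Peg3*, and within hyperoxia -0.86 and -0.84. The r of *Mest*, *Dlk1*, *Meg3*, *Igf2* and *H19* ran from -0.51 to 0.32 and their rho from -0.48 to 0.24. The smallest permutation p adjusted over the 10 genes was 0.145 and 0.200. In the same order of genes, r was -0.48, -0.04, 0.73, 0.34 and 0.55 within room air. Within hyperoxia it was -0.68, -0.37, -0.13, 0.06 and 0.10, and without the 2 farthest lungs -0.49, 0.54, 0.23, 0.01 and 0.41. The receptor share was 0.410% to 0.739% in the room air females and 0.669% to 0.847% in the hyperoxia females, with overlapping ranges, and it was not tested between exposures. With the share as a covariate, the female differences on the log2 scale were 0.033 for *Igf2r*, -0.0079 for *Grb10* and -0.046 for *Plagl1*. Without it they were -0.35, -0.29 and -0.48. In the covariate fit 4 of the 10 genes had an unadjusted p under 0.05 over both sexes, 2 in females, 2 in males and 1 in the interaction (edgeR). These counts were 2, 1, 1 and 0 without the share. The matching share of all genes is not given, and 153 of 45828 genes had an adjusted p under 0.05 over both sexes.

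**Figure D5:**
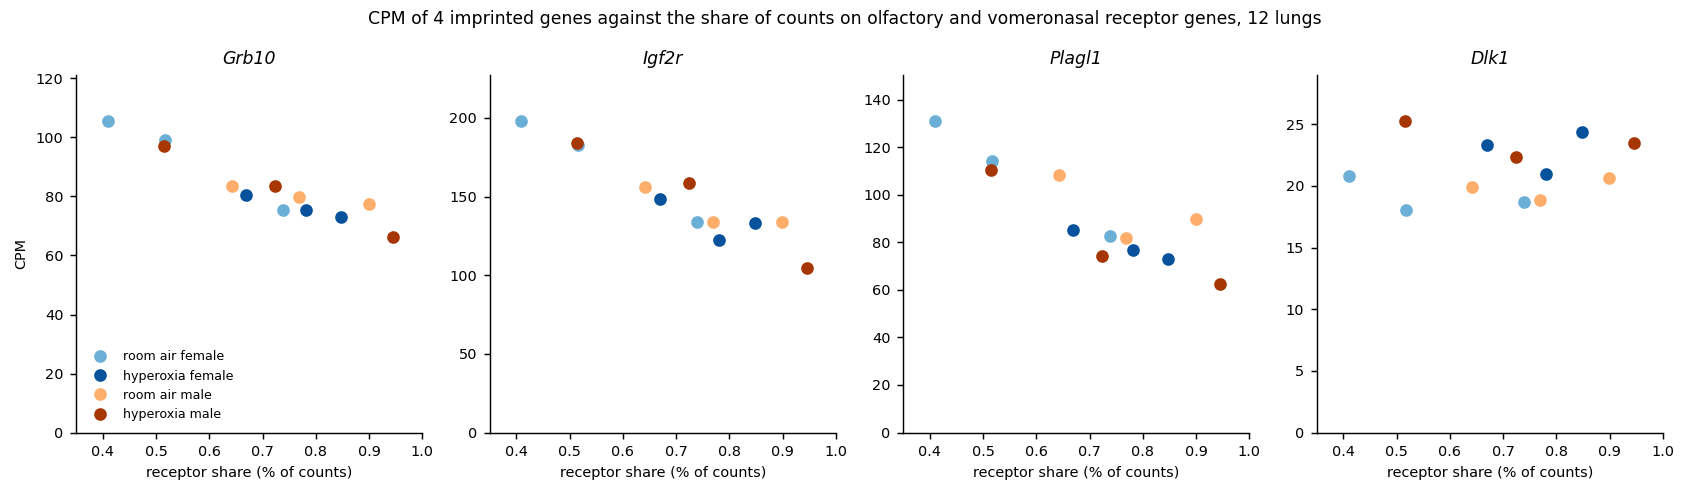
CPM of *Grb10*, *Igf2r*, *Plagl1* and *Dlk1* in each of 12 lungs against the receptor share, the percentage of counts on olfactory and vomeronasal receptor genes, coloured by group. The first 3 genes fall along the axis (r = -0.95, -0.93 and -0.89), while *Dlk1* shows no such order over all 12 lungs (r = 0.14).

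The response to hyperoxia was next compared between the sexes. In the interaction of sex and hyperoxia, the female minus the male effect, 0 of the 10 genes were called, where 0.0% of all genes were, and 0 had an unadjusted p under 0.05, against 8.46% of all genes. The smallest adjusted p was 0.578 (edgeR). *Cdkn1c* was at -0.48 (SE 0.27) and *Igf2r* at -0.43 (SE 0.33) on the log2 scale. With each lung left out in turn, *Cdkn1c* ran from -0.69 (without hyperoxia male 2) to -0.28 (without room air female 5) and *Igf2r* from -0.64 (without hyperoxia male 2) to -0.25 (without hyperoxia male 1). They were -0.041 and 0.068 once the receptor share entered the fit. *H19* was at 2.56 (SE 1.37), and at 0.28 without room air male 1. With 2 RUVr factors *H19* was called, at 1.67 (adjusted p = 0.0218, edgeR), where 4.98% of all genes were, but not without that lung, at 0.30. In the fit of all lungs with these factors *Igf2r* had an adjusted p of 0.0113 (edgeR) at -0.38, under the fold threshold, where 12.6% of all genes were under 0.05. Between females and males over both exposures, 0 of the 10 were called, where 1.22% of all genes were, and the smallest adjusted p was 0.916 (edgeR). Between the sexes 0 of the 10 had an unadjusted p under 0.05, against 6.88% of all genes. In both of these comparisons DESeq2 gave no p for *H19* and called 0 of the other 9, with 0 at an unadjusted p under 0.05, where it called 0.0% (interaction) and 1.73% (sexes) of its genes.

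Around *Dlk1* and *Meg3*, the other genes of the domain on chromosome 12 were mixed. *Dio3*, the deiodinase that inactivates thyroid hormone, is the other end of the domain from *Dlk1*. It had 5.39 to 6.41 CPM in the hyperoxia lungs and 3.39 to 5.22 CPM in the room air lungs, without overlap between the 6 and the 6. Its log2 fold change was 0.40 (SE 0.15, adjusted p = 0.927, edgeR), on 39 to 82 counts per lung, of which 47.3% was expected background. Groups without overlap over both sexes were found for 1 of 50 other imprinted genes and for 0.214% of all genes. *Rtl1*, a protein-coding gene of the paternal copy derived from a retrotransposon, had 11.8 to 18.9 CPM in room air and 13.9 to 18.4 CPM after hyperoxia, with a log2 fold change of 0.05. The maternal RNAs *Rian* and *Mirg* were at -0.10 and 0.06, and *Begain* was at 0.03. In room air male 1 *Rian* had 82.9 CPM, against at most 61.7 CPM in any other lung, and its value without room air male 1 is not given. In females the groups of *Mirg* did not overlap, at a log2 fold change of 0.16.

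At the *Igf2* and *H19* locus on chromosome 7, *Ins2* was at 0.03 and *Igf2os* at 0.11 on the log2 scale over both sexes. At the *Cdkn1c* locus, the non-coding RNA *Kcnq1ot1* was at -0.13, *Kcnq1* at -0.12, *Phlda2* at 0.15, *Slc22a18* at 0.14, *Cd81* at -0.23, *Ascl2* at -0.04, *Osbpl5* at -0.19, *Dhcr7* at -0.07 and *Tssc4* at -0.003. *Tssc4* differed in sign between the sexes, -0.36 in females and 0.36 in males (interaction -0.72, SE 0.24, adjusted p = 0.578, edgeR). In room air male 1 *Tssc4* had 8.14 CPM, against at least 10.75 CPM in every other lung, and its values without room air male 1 are not given. *Airn*, the antisense RNA that silences the paternal *Igf2r*, was at 0.006, with *Slc22a2* at 0.12 and *Slc22a3* at 0.04. Beside *Peg3*, *Usp29* was at 0.17 and *Zim1* at 0.13, beside *Mest*, *Copg2* was at -0.28 and *Klf14* at 0.17, and beside *Grb10*, *Ddc* was at -0.08. None of these was called.

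Over a list of 50 other imprinted genes that were tested, 0 were called over both sexes, 25 being higher and 25 lower with a median of 0.001, and 3 had an unadjusted p under 0.05 (2 with DESeq2, which called 0 of the 47 it gave an adjusted p), where 5.2% of all genes did. In females 0 of the 50 were called, and 9 had an unadjusted p under 0.05 (7 with DESeq2, which called 0 of the 40 it gave an adjusted p), where 12.6% of all genes did. The female groups did not overlap for 12 of the 50, where they did not for 17.2% of all genes. The higher ones after hyperoxia were *Dio3*, *Magel2*, *Mirg*, *Mkrn3*, *Phlda2*, *Rasgrf1*, *Slc22a2* and *Zim1*, and the lower ones *Kcnq1ot1*, *Ndn*, *Peg13* and *Ube3a*. Expected background was 31.5% to 77.0% of the counts of the 8 higher genes and 7.72% to 48.2% of those of the 4 lower ones, and in single lungs it reached 106% for *Mkrn3* and 107.5% for *Magel2*. The receptor share was also higher on average in the hyperoxia females, with overlapping ranges, and its part in these differences was not tested. In males 0 were called, 1 had an unadjusted p under 0.05 (1 with DESeq2, which called 0), where 2.7% of all genes did, and the groups did not overlap for 3 of the 50 (6.62% of all genes), *Dio3* and *Tssc4* (higher) and *Ndn* (lower). *Ndn*, necdin, a growth suppressor that is active from the paternal copy, thus was lower without overlap in each sex, at 6.97 to 9.86 CPM after hyperoxia and 9.38 to 10.1 CPM in room air, with a pooled log2 fold change of -0.31 (SE 0.12, adjusted p = 0.927, edgeR). Between the sexes *Nap1l5* alone of the 50 had groups that did not overlap, higher in females by 0.42 on the log2 scale (adjusted p = 0.542, edgeR), where 1.2% of all genes had such groups. It had 26 to 67 counts, of which 62.7% was expected background.

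Finally, 15 genes of the surrounding growth signal were examined, the ligand *Igf1*, the receptors *Igf1r* and *Insr*, their substrates, 4 IGF binding proteins, RNA-binding regulators and the chromatin protein gene *Hmga2*. With edgeR 0 of the 15 were called over both sexes, 0 in females and 0 in males, and 3, 4 and 2 had an unadjusted p under 0.05 (3, 6 and 1 with DESeq2), where 5.2%, 12.6% and 2.7% of all genes did and 0.0415%, 0.00218% and 0.0% were called. DESeq2 called 1 gene, *Igfbp3*, over both sexes (log2 fold change -0.65, adjusted p = 0.0273) and in females (-0.85, adjusted p = 0.0377), and 0 in males, where it called 0.17%, 0.512% and 0.0% of its genes. *Igfbp3*, the main carrier of IGFs in serum, had 23.7 to 37.1 CPM after hyperoxia and 35.9 to 53.3 CPM in room air. The difference on the log2 scale was -0.61 (SE 0.13, adjusted p = 0.0791, edgeR) over both sexes and -0.75 (SE 0.18, adjusted p = 0.204, edgeR) in females, where the groups did not overlap. *Igf1* was at -0.41 (SE 0.14, adjusted p = 0.921, edgeR), with 34.8 to 51.8 CPM after hyperoxia and 43.9 to 80.6 CPM in room air. *Lin28a*, an RNA-binding protein of early development, was at 0.51 in females (SE 0.18, adjusted p = 0.352, edgeR), without overlap, with 41.0% of its counts expected from background. Of the 15 genes, 1 higher (*Lin28a*) and 1 lower (*Igfbp3*) had female groups that did not overlap, where 17.2% of all genes had such groups. The 3 IGF2 mRNA-binding proteins *Igf2bp1*, *Igf2bp2* and *Igf2bp3* were at 0.09, 0.09 and -0.01 over both sexes.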

How the data were processed

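Whole-lung RNA-Seq of 12 *miR-30a*-/- mice was analysed, 3 per sex and exposure. The authors deposited raw counts per gene, without normalization, made with featureCounts from STAR alignments to mm10 (GRCm38) after trimming by Trim Galore. Versions, strand and multi-mapper settings are not given in the sources used here, and the labels and the methods of the study name different library kits. Each column was matched to 1 sample, and 0 columns were left over. Positions and exon lengths came from GENCODE mouse release M21, which matched 55227 of the 55487 genes.

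Counts were fitted in R 4.3.3 with edgeR 4.0.16 (limma 3.58.1): filterByExpr, upper-quartile normalization and a robust quasi-likelihood fit of the 4 groups over 12 lungs. The biological coefficient of variation was 0.177. The pooled effect is the mean of the female and male effects. CPM use the normalized library sizes, and correlations use log2 CPM with a prior count of 2. Single relations used two-sided tests with 100000 permutations (Python 3.11.15, numpy 2.4.6, pandas 2.3.3, scipy 1.17.1; figures with matplotlib 3.10.9). On simulated counts of 45828 genes the pooled test recovered 200 of 200 genes changed by 2 on the log2 scale, with 9 false calls.

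Expected background was the median reads per kilobase on 1490 receptor genes (1138 olfactory) times exon length. The members and gene lists were chosen with earlier results of these data known. The named genes are the 10 members, other imprinted genes that share a locus with one or whose groups do not overlap, growth signalling genes, and the 3 genes most like *H19* and *Igf2*. The study names a ComBat-seq step after listing these and wild-type libraries, without stating its batches, and that step was not repeated. The study's number of RUVr factors is not stated, so that RUVr was an alternative. The others were TMM, DESeq2 1.42.0, other filters, background subtracted, the receptor share as covariate, fits of 1 sex, a replicate block and each lung left out in turn. DESeq2 gave *H19* no p, which was left as missing. Thymus markers summed to 28.8 to 53.2 CPM over the lungs, adipose markers to 33.5 to 45.9 CPM and liver markers to 8.78 to 16.7 CPM.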

Additional observations from a re-analysis of the deposited data

Results flagged for a closer look

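In groups of 6 lungs of 1 exposure, 2 values stood apart from the others by more than Dixon's limit, out of 20 groups examined (10 genes in 2 exposures), where chance marks about 1 group in 20. The first was *H19* in room air male 1, at 143 CPM, with a gap to the next lung of 0.98 of the whole range of the 6. The skeletal muscle markers of the same lung summed to 2303 CPM, and their part in the *H19* level was not tested. The second was *Peg3* in room air female 5, at 142 CPM, with a gap of 0.69 of the range. That lung was the deepest, with 16741694 counts, and had the smallest receptor share, 0.410%, and the part of these in its *Peg3* level was not tested.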

How the results depend on the processing

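Of the log2 fold changes of the 10 genes under the alternatives, 781 kept their direction, 61 turned and 2 passed the threshold. The 781 also kept their side of the threshold, apart from *H19* with DESeq2, which had no p to judge by. The 2 were *H19* in males and in the interaction with 2 RUVr factors. Thus 1 of 10 genes was called in each (0.233% and 4.98% of all genes), and 0 without room air male 1, a fit added after seeing the data. Over both sexes *Igf2* was at -0.027 with a replicate block, *Mest* at -0.0024 (TMM), -0.025 (DESeq2) and -0.0012 (no filter), and *Cdkn1c* at -0.017 (DESeq2). In females *H19* was at -0.0024 (DESeq2), -0.60 (receptor share covariate) and -0.14 (block), *Igf2* at 0.061 (at least 10 counts) and 0.021 (6 libraries), *Igf2r* at 0.033 and *Cdkn1c* at 0.14 (covariate), *Mest* at -0.054 (DESeq2) and -0.061 (block), and *Peg3* at 0.068 (background subtracted), 0.31 (covariate) and 0.036 (block). In males *Igf2r* was at -0.034 (covariate), *Mest* at 0.0043 (DESeq2) and *Grb10* at -0.021 (background subtracted) and -0.039 (covariate). The interaction was among the main tests, but its values by gene under the alternatives were added after seeing the data. There *Igf2r* was at 0.068, *Grb10* at 0.031 and *Plagl1* at 0.26 (covariate), and *Mest* at -0.059 (DESeq2). *Meg3* was at -0.011 (TMM), -0.082 (DESeq2), -0.020 (no filter) and -0.044 (covariate). *Dlk1* was at 0.075 (at least 10 counts), 0.034 (background subtracted), 0.065 (covariate), 0.0021 and 0.0086 (1 and 2 RUVr factors). The cause was not tested.

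With each lung left out in turn, the turned values ran from -0.067 to 0.10 (*Mest*) and -0.052 to 0.13 (*Cdkn1c*) over both sexes. In females they ran from -0.13 to 0.25 (*H19*), -0.18 to 0.16 (*Igf2*), -0.12 to 0.20 (*Mest*) and -0.24 to 0.081 (*Peg3*). In males they ran from -0.10 to 0.29 (*Igf2r*), -0.13 to 0.10 (*Mest*) and -0.093 to 0.18 (*Grb10*), and in the interaction from -0.041 to 0.083 (*Meg3*), -0.051 to 0.057 (*Dlk1*) and -0.11 to 0.21 (*Mest*). The r of *H19* and *Igf2* was 0.0085 for residuals and 0.40 without 2 lungs, and that of *Dlk1* and *Meg3* was 0.31 for residuals.

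The replicate numbers were not treated as pairs, since deviations of same-numbered lungs had an r of 0.21, -0.33 and -0.49 over 16437 genes. With the replicate block 0 of the 10 genes were called, and over all genes 2 were called over both sexes, against 19. The block of the 6 female libraries called 451, against 80 for those libraries without it. DESeq2 called 40 and 89 genes, and RUVr 88 and 1883 (1 factor) or 125 and 1957 (2 factors), and background subtraction left 10 over both sexes. The fit of all 12 lungs called 1 gene in females, and 0 to 206 with each lung left out in turn (206 without room air female 6), and 3 to 37 over both sexes (37 without hyperoxia male 1). With 2 RUVr factors 107 were called in males, against 0, and without room air male 1 these factors gave 15 in males, 265 over both sexes and 657 in the interaction, against 2284 with that lung. The background share of *Igf2* was 22.6% (same strand) or 21.5% (either strand) with all counts set over unshared bases, against 60.8%. These lengths were added after seeing the data. The simulation covered a log2 change of 2, and the power for smaller differences was not tested.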
